A study of Mus musculus with 12 samples.

Results

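Secretoglobins and other genes of the airway club cell were followed in the lungs of obese db/db mice exposed to ozone (O3) or air. They comprised 6 of the 21582 genes that the arrays measured. Scgb1a1, Scgb3a1 and Scgb3a2 encode secretoglobins, and the others encode the paraoxonase Pon1, the matrix protein Chad and the potassium channel subunit Kcne2. They were chosen by symbol, with the probe set of highest mean signal for each symbol, and each of the 6 had a single probe set that matched no other gene. RNA from the left lungs of female mice aged 10 weeks on a C57BL/6 background was hybridized to 12 Affymetrix arrays, 1 per sample. Exposure to O3 was at 2 ppm for 3 h without food or water, and lungs were studied 24 h later. Of the db/db arrays, 4 came from air exposure and 4 from O3 exposure after an isotype control antibody. Another 3 db/db arrays came from O3 exposure after anti-IL-17A, an antibody that blocks the cytokine IL-17A (replicates 1, 2 and 4). A single wild-type (WT) array represented O3 exposure after the isotype antibody. Every mouse thus received an antibody. Mice of the db/db genotype carry a mutation that removes the long form of the leptin receptor in all cells, so obesity and loss of leptin signalling come together in them. No array was available here for WT mice in air or for anti-IL-17A in air. The labels do not state whether the arrays of a group came from separate animals, and p-values measure only the spread between these samples.

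Club cells are secretory cells of the conducting airways. They make secretoglobins, small proteins released into the fluid that lines the airway, and they carry cytochromes and other enzymes that metabolize inhaled chemicals. They can also divide and give rise to ciliated cells after injury of the bronchiolar epithelium. Scgb1a1, also called CC10 or uteroglobin, is the classical club cell protein. Scgb3a1 and Scgb3a2 are related secreted proteins, the first found mainly in larger airways. Pon1 hydrolyses lactones and oxidized lipids and is best known as a liver enzyme that circulates on high density lipoprotein. Chad (chondroadherin) is a leucine-rich repeat protein first described in cartilage. Kcne2 is an accessory subunit that modifies Kcnq1 and other potassium channels and is well known from the acid-secreting cells of the stomach.

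Positions are those of the mouse assembly GRCm38.p6. Scgb1a1 was annotated at chr19:9083642-9087956, Kcne2 at chr16:92292389-92298133 and Pon1 at chr6:5168090-5193987. Scgb3a1 (chr11:49663595-49665118) and Chad (chr11:94565047-94569127) shared chromosome 11. The 250 bases before the start were examined for the genes whose promoters are in the RefSeq table of this assembly and may be shown. These were Scgb3a1, Chad, Pon1 and Kcne2, the last with 2 starts. The motifs searched on both strands were FOXA (TGTTTAC or TGTTTGC), NKX2 (CACTTGA or CACTCAA) and C/EBP (TTGCNNAA), the binding motifs of factor families that regulate airway epithelial genes. Among 32851 mouse promoters of this length, 7.29% held the FOXA motif, 5.10% the NKX2 motif and 9.56% the C/EBP motif. The promoters with a match are shown because their genes had some of the largest differences between O3 and air, and capitals mark the matches.
Scgb3a1: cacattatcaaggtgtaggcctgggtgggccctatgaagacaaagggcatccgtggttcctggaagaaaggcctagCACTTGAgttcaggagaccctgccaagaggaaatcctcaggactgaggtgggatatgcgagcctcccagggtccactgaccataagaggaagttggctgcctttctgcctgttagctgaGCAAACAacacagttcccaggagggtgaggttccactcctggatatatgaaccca
Chad: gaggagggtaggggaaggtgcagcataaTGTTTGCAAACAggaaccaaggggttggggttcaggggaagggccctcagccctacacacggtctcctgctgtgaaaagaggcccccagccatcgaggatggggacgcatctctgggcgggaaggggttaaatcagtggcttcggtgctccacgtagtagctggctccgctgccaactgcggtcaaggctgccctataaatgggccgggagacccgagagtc
Pon1: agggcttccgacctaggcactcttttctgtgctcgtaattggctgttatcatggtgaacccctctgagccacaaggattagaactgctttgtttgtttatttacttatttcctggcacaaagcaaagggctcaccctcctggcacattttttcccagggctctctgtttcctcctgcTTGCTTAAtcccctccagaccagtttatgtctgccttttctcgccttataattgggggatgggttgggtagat
The Scgb3a1 window (chr11:49663345-49663594, plus strand) held an NKX2 match that began 174 bases before the start and a FOXA match that began 55 bases before it. In the Chad window (chr11:94564797-94565046, plus strand) a pair of overlapping FOXA matches in opposite orientations began 222 and 217 bases before the start. The Pon1 window (chr6:5193947-5194196, minus strand) held a C/EBP match that began 73 bases before the start in the promoter table, which lies 41 bases inside the gene bounds given above. Neither Kcne2 window held any of these letters. These matches describe the sequence, and no binding was measured.

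The array medians lay between 4.75 and 4.90 on the log2 scale of the deposited signals. The 3 arrays with high Ucp1, a gene of brown fat, came from 3 groups (air replicate 3, isotype O3 replicate 4 and anti-IL-17A replicate 1, at 10.12, 10.2 and 10.53 against at most 5.075 elsewhere). Anti-IL-17A replicate 1 also had the lowest mean correlation with the other arrays across genes (0.947 against 0.972 to 0.982). The counts of called genes are given with and without the Ucp1-high arrays. A gene was called changed at an adjusted p under 0.05 in limma, fitted to all 12 arrays with Benjamini-Hochberg adjustment over all genes.

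The comparison of O3 with air under the isotype antibody asked how the airway secretory genes responded to the exposure. Scgb3a2 fell 2.48-fold. Mean signals of Pon1, Chad and Scgb3a1 were also lower by 1.03 to 1.52 on the log2 scale, with no overlap between the arrays of both groups, but these genes did not pass the test across all genes. Scgb1a1 and Kcne2 differed by 0.29 on the log2 scale and their arrays overlapped. Thus 1 of the 6 genes was called lower, where 0.445% of all genes were, and 4 of the 6 had every O3 array below every air array, where 6.62% of all genes had. The median difference of the 6 genes was -1.17, against 0.0036 for all genes. In bulk lung, fewer cells of a type and less RNA per cell cannot be told apart.

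Scgb3a2 had log2 signals of 10.14, 10.43, 10.06 and 10.28 in air and 9.13, 8.95, 9.03 and 8.56 after O3. All O3 arrays were therefore nearly 1 log2 unit or more below the lowest air array. The difference was -1.31 ± 0.23 (SE, 95% confidence interval -1.83 to -0.79, limma adjusted p = 0.0397; n = 4 and 4), and an exact permutation test, two-sided, gave p = 0.0286, the smallest that 4 against 4 arrays can give. In the 12-array fit the call was lost without any 1 of these 8 arrays (limma adjusted p 0.073 to 0.138). In a fit of the air and isotype O3 arrays alone it was kept in all 8 such cases (limma adjusted p 0.00101 to 0.00772).

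Scgb3a1 gave signals of 10.64, 10.75, 10.76 and 10.27 in air. After O3 they were 10.10, 9.86, 8.53 and 9.81. O3 replicates 1, 2 and 4 lay within about 1 log2 unit of the air arrays, and replicate 3 lay far below them. The difference was -1.03 ± 0.39 (SE, interval -1.88 to -0.17, limma adjusted p = 0.235, exact permutation p = 0.0286). Without isotype O3 replicate 3 it was -0.68.

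Scgb1a1 was the brightest of the secretoglobins, with signals of 11.21, 11.43, 11.40 and 11.60 in air. After O3 they were 10.99, 11.34, 11.21 and 10.95. The ranges overlapped, and the difference was -0.29 ± 0.12 (SE, interval -0.55 to -0.03, limma adjusted p = 0.279, exact permutation p = 0.0571). The signal was near the top of the scale, since the highest value on any array lay between 12.3 and 12.7 and 68 of the 21582 genes had a higher mean. Among the 118 genes with a mean signal of 11 or more, a limit chosen after seeing these values, O3 minus air ran from -0.58 to 0.46, and 16.1% of them had a difference as low as that of Scgb1a1 or lower, against 8.96% of all genes. The part of signal brightness in the small difference of Scgb1a1 was not tested.

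The size of the difference between O3 and air was smaller for Scgb1a1 than for Scgb3a2. Within an array, Scgb1a1 minus Scgb3a2 was between 1.0 and 1.34 in air and between 1.85 and 2.39 after O3, with no overlap. The mean of this difference of log2 signals was 1.18 in air and 2.20 after O3, a shift of 1.02. This describes 1 of the 15 possible pairs, chosen after the values were seen and read against a bright probe set, and was not tested.

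**Figure D1:**
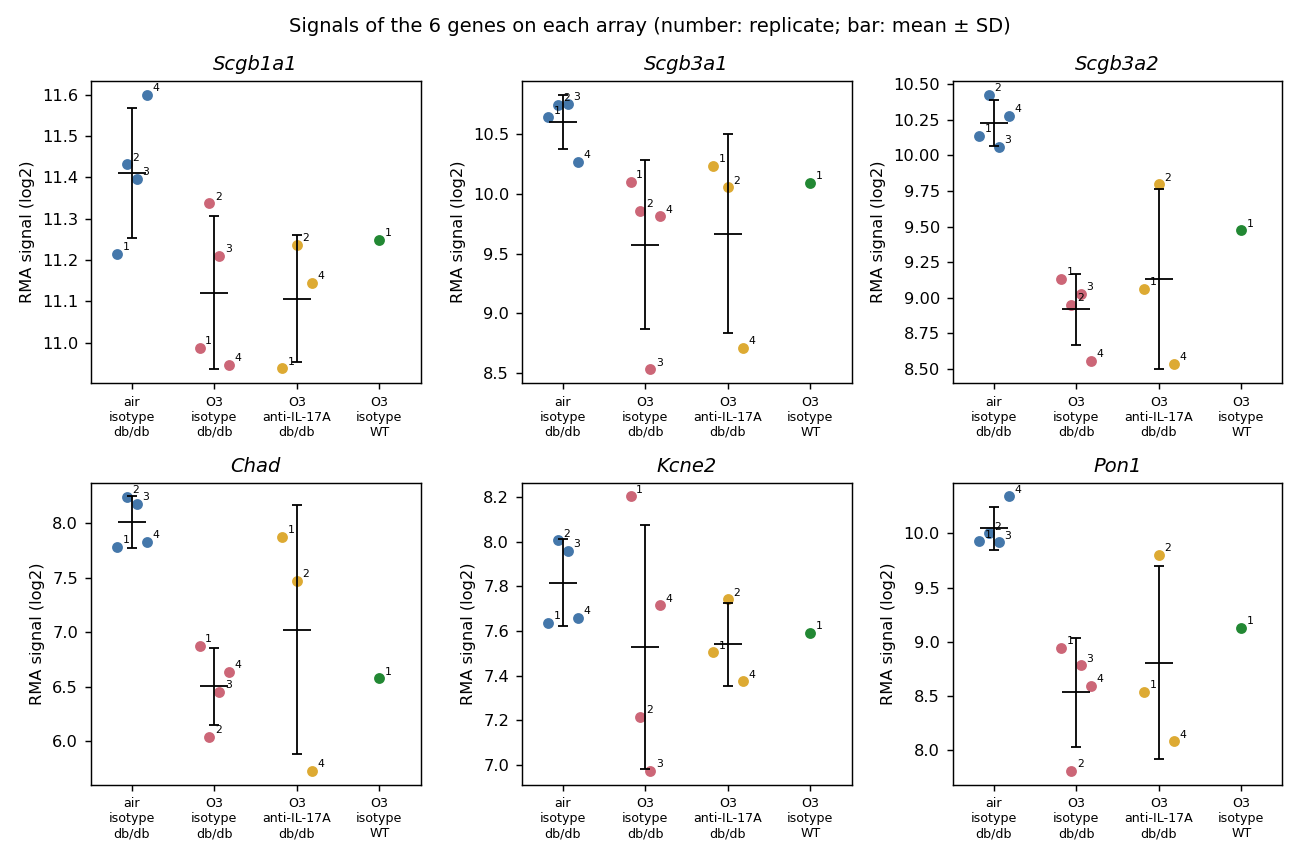
RMA signals (log2, y axis; each panel has its own scale) of the 6 genes on each of the 12 arrays, by group on the x axis, with numbers giving the replicate and bars the mean ± SD. Every O3 array of the db/db isotype group lies below every air array for Scgb3a2, Pon1, Chad and Scgb3a1, but not for Scgb1a1 or Kcne2.

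Pon1 had signals of 9.93, 10.003, 9.92 and 10.34 in air and of 8.94, 7.80, 8.78 and 8.59 after O3. The highest O3 array was almost 1 log2 unit below the lowest air array, and replicate 2 was lowest. Its difference, -1.52 ± 0.35 (SE, interval -2.29 to -0.74), was the largest of the 6, with a limma adjusted p of 0.0722 (exact permutation p = 0.0286).

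Chad had signals of 7.78, 8.24, 8.18 and 7.83 in air and of 6.88, 6.04, 6.46 and 6.64 after O3, again without overlap. The difference was -1.51 ± 0.39 (SE, interval -2.37 to -0.64, limma adjusted p = 0.0997, exact permutation p = 0.0286). As Chad is also a cartilage gene, 12 cartilage markers were read on the same arrays. Their mean log2 signal was between 3.87 and 4.37 on all 12 arrays, below every array median, and none was called between O3 and air (median difference -0.12). Of the 12 differences 10 were below 0. The highest list mean, 4.37, was that of anti-IL-17A replicate 1, and the single marker Ucma reached 5.86 in air. The part of cartilage RNA in the Chad values was not tested.

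Kcne2 had signals of 7.64, 8.01, 7.96 and 7.66 in air. After O3 they were 8.20, 7.21, 6.97 and 7.71, so that replicate 1 was above all air arrays and replicates 2 and 3 were below them. The difference, -0.29 ± 0.24 (SE, limma adjusted p = 0.621, exact permutation p = 0.371), was within the spread of the O3 arrays. It was -0.51 without O3 replicate 1, -0.19 without replicate 2 and -0.10 without replicate 3. Its interval, -0.81 to 0.23, holds values well below 0, so that a lower level after O3 could not be told from no difference.

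The calls depended on which arrays set the spread. In the fit of the 8 air and isotype O3 arrays alone, the SE of Chad was 0.18 in place of 0.39 and that of Pon1 was 0.23 in place of 0.35, and 3 of the 6 genes were called lower, where 2.92% of all genes were. They were Scgb3a2 (limma adjusted p = 0.00158), Chad (0.00297) and Pon1 (0.00737). The differences themselves are the same in both fits. Without the 3 arrays high in Ucp1 the 12-array fit called none of the 6, where it called 1 of all 21582 genes lower (0.00463%). The fit of both groups alone with the Ucp1-high arrays left out called 3 of the 6, where 1.96% of all genes were called lower. The loss of calls in the 12-array fit was thus general, since without any 1 of the 8 arrays it called 0 to 3 of all genes lower.

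**Figure D2:**
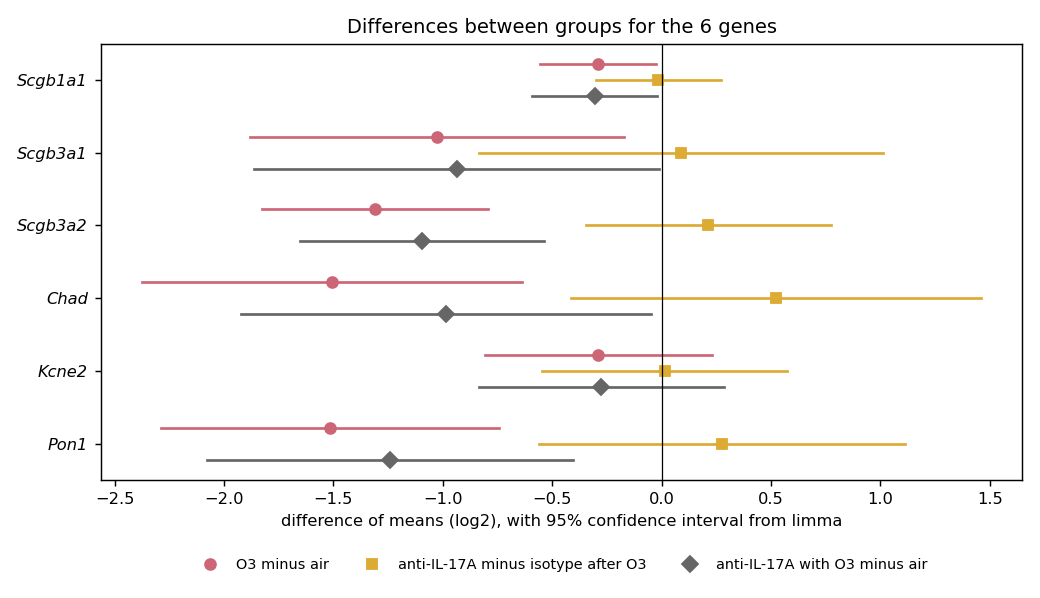
Differences of group means (log2, x axis) with 95% confidence intervals from the 12-array limma fit for the 6 genes. O3 minus air is below 0 for all 6, with Pon1 at -1.52 and Chad at -1.51 lowest, whereas every interval of anti-IL-17A minus isotype after O3 spans 0.

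The next comparison asked whether blocking IL-17A altered these genes after O3. None of the 6 genes was called, and none of the 21582 genes was (limma, 0% called, 996 genes or 4.61% at an unadjusted p under 0.05). The differences, anti-IL-17A minus isotype, were 0.52 for Chad, 0.28 for Pon1, 0.21 for Scgb3a2, 0.09 for Scgb3a1, 0.01 for Kcne2 and -0.01 for Scgb1a1 (limma adjusted p 0.832 to 0.990). An exact permutation test of 3 against 4 arrays cannot give a p below 0.0571. The intervals were wide, from -0.41 to 1.46 for Chad and from -0.35 to 0.77 for Scgb3a2, so differences within them could not be told from 0 with 3 arrays. The value of Chad was 0.0977 without anti-IL-17A replicate 1, 0.30 without replicate 2 and 1.17 without replicate 4.

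The 3 anti-IL-17A arrays were unlike each other. In order of replicates 1, 2 and 4, Scgb3a2 had signals of 9.06, 9.80 and 8.53, and Pon1 had 8.54, 9.80 and 8.08. Replicate 2 was just below the air arrays for both genes, whereas replicate 4 was just below the lowest isotype O3 array for Scgb3a2. Chad had 7.87, 7.47 and 5.73, which placed replicate 1 within the air range and replicate 4 below every other array. Scgb3a1 followed with 10.23, 10.06 and 8.71. The narrower genes were Scgb1a1 (10.94, 11.24 and 11.14) and Kcne2 (7.50, 7.74 and 7.37). Averaged over the 6 genes, the deviation from the air mean was -0.66 for replicate 1, -0.33 for replicate 2 and -1.42 for replicate 4, against -0.64 to -1.19 on the isotype O3 arrays. Signals were below the air range for 5, 4 and 6 of the 6 genes on replicates 1, 2 and 4, where 29.0%, 18.6% and 28.8% of all genes were. The replicate 1 array is the one with the low correlation with the other arrays, so that the air-like Chad signal and the O3-like Scgb3a2 and Pon1 signals come from an array that stands apart. Its part in these values was not tested.

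Compared with air, the anti-IL-17A arrays after O3 were lower by 1.24 on the log2 scale for Pon1, 1.10 for Scgb3a2, 0.98 for Chad, 0.94 for Scgb3a1, 0.30 for Scgb1a1 and 0.28 for Kcne2. Pon1, Scgb3a1 and Scgb3a2 had no overlap with the air arrays, where 4.89% of all genes had every array lower. None of the 6 was called (limma adjusted p 0.159 to 0.597), and no gene was of all 21582 (0%, with 3581 or 16.6% at an unadjusted p under 0.05). This comparison shares the air arrays with that of the isotype antibody. It also rests on 1 array, since without anti-IL-17A replicate 2 Scgb3a2 (limma adjusted p = 0.00356) and Pon1 (0.00771) were called lower, together with 4.25% of all genes. Without replicate 4 the differences of Chad and Scgb3a1 from air were -0.34 and -0.46.

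The single WT array after O3 had signals of 9.47 for Scgb3a2, 9.13 for Pon1, 6.58 for Chad, 10.10 for Scgb3a1, 11.25 for Scgb1a1 and 7.59 for Kcne2. It was above all 4 db/db isotype O3 arrays for Scgb3a2 and Pon1, as it was for 17.7% of all genes, and within their range for the other 4 genes. WT minus db/db was 0.56 for Scgb3a2 and 0.60 for Pon1 (limma adjusted p = 0.9998 for each of the 6 genes; 0% of all genes called, and 703 or 3.26% had an unadjusted p under 0.05). The WT array was below the range of the db/db air arrays for 5 of the 6 genes, where 25.0% of all genes were. With 1 array the WT level has no replicate check, and whether O3 changed these genes in WT lungs cannot be told without a WT air array.

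Other members of the families were measured too. Scgb1c1 was the only other measured gene with a symbol that begins with Scgb. Its mean signal was 11.32 in air and 10.84 after O3 (difference -0.48 ± 0.19 SE, limma adjusted p = 0.258), with overlap. Pon3, a lactonase beside Pon1 in the paraoxonase family, was at 9.81 in air and 9.11 after O3 (-0.70 ± 0.24, limma adjusted p = 0.198), and its arrays did not overlap. Pon2, found in many tissues, differed by -0.21 (limma adjusted p = 0.473). Pon1 thus had a larger difference than either relative, and the intervals of the paraoxonases were not compared by a test. Kcne4, another channel subunit, was at 5.07 in air and 6.29 after O3, all O3 arrays higher, as for 8.81% of all genes (1.22, limma adjusted p = 0.141). None of 13 small leucine-rich repeat proteins, the relatives of Chad, was called, and the smallest p was that of Ogn (osteoglycin, -0.60, limma adjusted p = 0.156). In the fit of air and isotype O3 arrays alone, Pon3 (limma adjusted p = 0.00898) and Ogn (0.0356) were called lower and Kcne4 (0.0136) higher.

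A list of 17 other club cell genes showed which further functions moved. Aox3, Aldh1a1 and Cbr2 (3 of 17) fell after O3 in the 12-array fit and none rose (0.445% of all genes were called lower and 0.598% higher). Aox3, an aldehyde oxidase, was at 10.09 ± 0.07 in air and 8.35 ± 0.11 after O3 (SD, n = 4 and 4; -1.74, limma adjusted p = 0.0389). Aldh1a1, a retinaldehyde dehydrogenase, was at 11.46 ± 0.09 and 10.96 ± 0.02 (-0.50, 0.0374). Cbr2, a carbonyl reductase abundant in club cells, was at 11.67 ± 0.11 and 11.10 ± 0.21 (-0.57, 0.0466). The genes that fell thus encode enzymes that act on aldehydes and ketones. Of the 17 differences 16 were below 0, and their median was -0.58 against 0.0036 for all genes. Every O3 array was below every air array for 10 of the 17, where this held for 6.62% of all genes. Sult1d1, a sulfotransferase, had the lowest difference (-1.80, limma adjusted p = 0.165), and Cyp2f2, the cytochrome that marks mouse club cells, had -0.58 (0.0997). Neither passed the test. In the fit of both groups alone 10 of the 17 were called lower, where 2.92% of all genes were. With 1 array left out of the 12-array fit none of the 17 was, and 0 to 3 of all genes were. In the anti-IL-17A arrays 0 of the 17 were called against the isotype O3 arrays.

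None of 13 genes encoding factors that specify or maintain club cells, and their Notch partners, was called in the same comparison. Sox2, a factor of the airway epithelium, had the smallest p, with a difference of -0.38 (limma adjusted p = 0.369). Nkx2-1, Foxa1 and Foxa2, the lung and forkhead factors whose motifs were searched above, differed by -0.12, -0.22 and -0.07. Of the C/EBP factor genes, whose motif was also searched, Cebpa had a mean signal of 6.96 in air and 6.71 after O3. Cebpb was at 5.97 in air and 6.15 after O3, and Cebpd at 7.41 and 7.67. The median difference of the 13 was 0.10, and 5 of the differences were below 0. No regulator had arrays without overlap between O3 and air. Of all genes 6.62% had every O3 array lower and 8.81% every O3 array higher. The lists were not compared by a test.

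**Figure D3:**
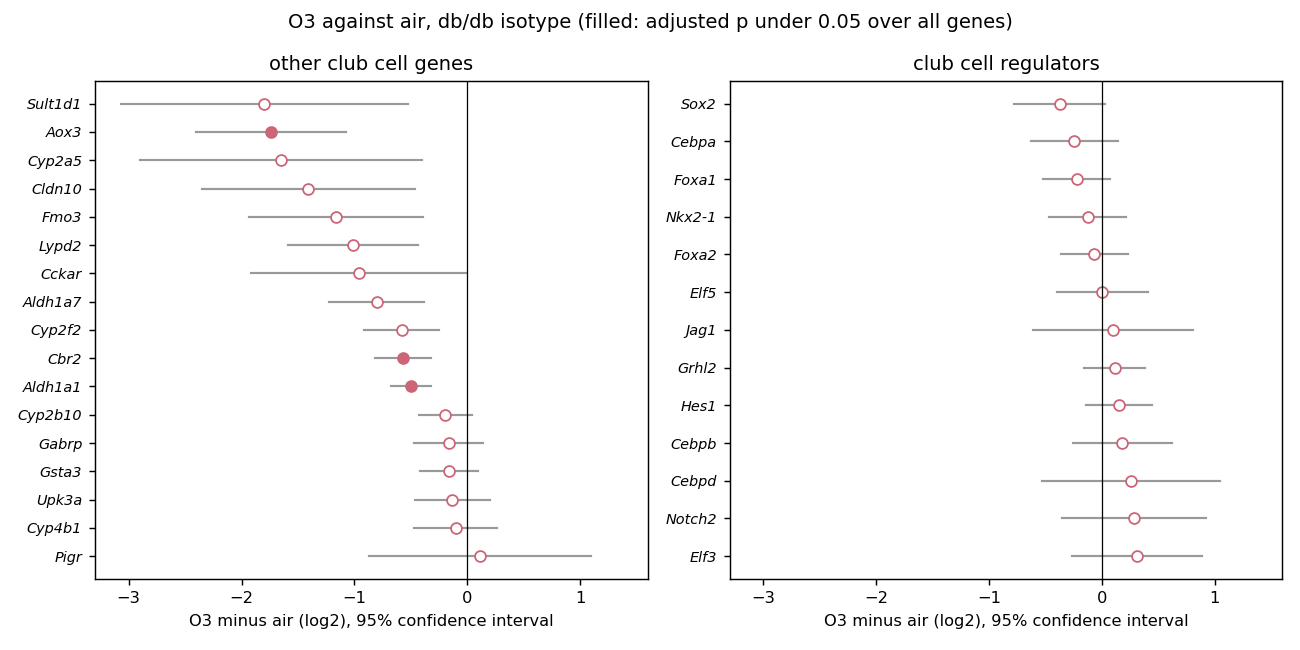
O3 minus air (log2, x axis) under the isotype antibody, with 95% confidence intervals from limma, for 17 other club cell genes and 13 regulators. Filled points mark the 3 genes called lower, Aox3, Cbr2 and Aldh1a1, and none of the regulators was called.

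Markers of other cells were read on the same arrays. Of 17 ciliated cell markers 3 fell after O3 (0.445% of all genes), the axonemal genes Hydin (-2.12, limma adjusted p = 0.0374) and Dnahc9 (-1.42, 0.0374) and Ccdc40 (-0.72, 0.0476). All 17 differences were below 0, 14 had every O3 array lower, as 6.62% of all genes had, and the median was -1.42. In the fit of air and isotype O3 arrays alone 13 of the 17 were called lower, where 2.92% of all genes were. In the 12-array fit none was called without the 3 Ucp1-high arrays (limma adjusted p = 0.120 for Hydin, Dnahc9 and Ccdc40). There 1 of all 21582 genes was called lower (0.00463%). Nor was any of the 17 called in that fit without any 1 of the 8 arrays of the comparison, where 0 to 3 of all genes were called lower. The fit of both groups alone with the Ucp1-high arrays left out called 14 of the 17 lower, where 1.96% of all genes were. The mean signal of this list was 6.95 to 7.15 in air and 5.42 to 6.12 after O3, and 5.41, 6.87 and 5.39 on anti-IL-17A replicates 1, 2 and 4. The array highest for the ciliated list after anti-IL-17A was thus the one highest for Scgb3a2 and Pon1. On the WT array the list stood at 6.44. The part of this shift in the club cell values was not tested. Alveolar type 2 cells make the surfactant of the lung. The mean signal of their 10 markers was 9.57 to 9.86 in air and 9.64 to 9.83 after O3, with overlap. Of these 10 markers 0 were called, but 3 had every O3 array lower, where 6.62% of all genes had. Their median difference was -0.098. The 12-array fit called no marker among 10 of alveolar type 1 cells, 6 of goblet cells or 11 of basal and injured epithelium. Of these 11, 4 had every O3 array higher, where 8.81% of all genes had, and the median difference was 0.54. The fit of air and isotype O3 arrays alone called 4 of the 11 higher, the keratins Krt8, Krt18 and Krt19 and the junction gene Cldn4, where 4.87% of all genes were. It also called the alveolar type 1 marker Rtkn2 lower (-1.80, limma adjusted p = 0.0353). The 9 neutrophil markers had a mean log2 signal of 6.30 to 8.69 in air and 6.38 to 7.17 after O3, and the differences of all 9 were below 0 (median -0.85) with none called. On anti-IL-17A replicates 1, 2 and 4 the neutrophil list stood at 6.12, 8.52 and 6.35, and on the WT array at 8.38, where all 9 markers were above every db/db isotype O3 array (17.7% of all genes were). Anti-IL-17A replicate 2, the highest of its group for Scgb3a2 and Pon1, was thus also the highest for neutrophil markers. The part of neutrophil RNA in the values of the 6 genes was not tested.

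**Figure D4:**
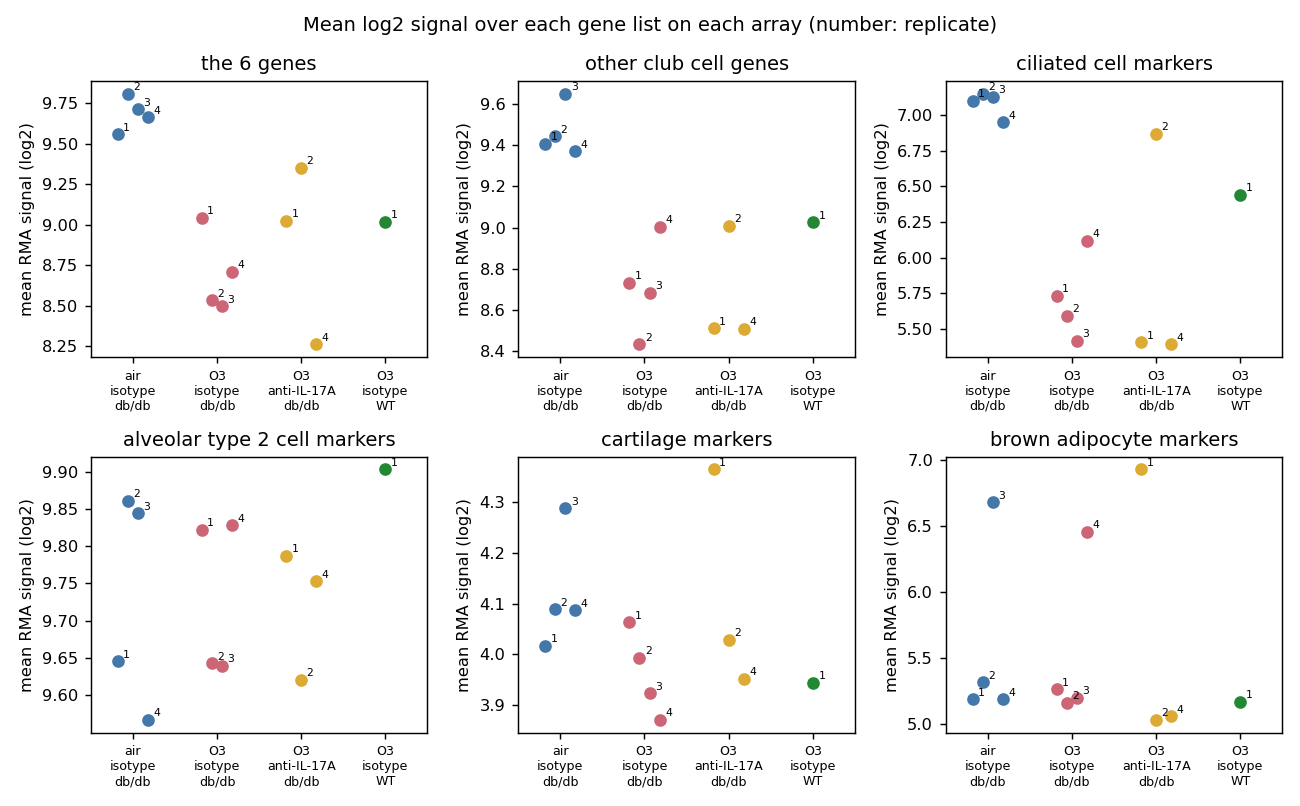
Mean log2 signal (y axis; each panel has its own scale) of the 6 genes and of 5 lists of marker genes on each array, by group on the x axis, with numbers giving the replicate. The ciliated list lies at 5.42 to 6.12 on the isotype O3 arrays and at 6.95 to 7.15 in air, and the alveolar type 2 list overlaps between these groups.

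For each gene, the 3 genes with the most similar profile over the 12 arrays were found as those with the smallest root mean square (RMS) difference after centring, among genes brighter than the median gene. Scgb3a2 was nearest to Dnahc9 (an RMS difference of 0.245 log2 units), Cyp4f15 (0.254) and Dcdc5 (0.256). Its own profile had an RMS size of 0.641. Pon1 was nearest to Cyp4f15 (0.284), Dnali1 (0.309) and Scgb3a2 itself (0.316), against an RMS of 0.795. Dnahc9 and Dnali1 encode dynein chains of the cilium. Scgb3a1 was nearest to Plunc (0.184), also called Bpifa1, a secreted airway protein, then to Eno4 (0.296) and Adam28 (0.322). Chad was nearest to 5330417C22Rik (0.360), Lypd2 (0.384) and Tppp3 (0.394), the last a ciliated cell marker. Kcne2 was nearest to the epithelial transcription factor gene Ehf (0.199), Cpm (0.227) and Tmem30b (0.228). Scgb1a1, whose own RMS was only 0.193, was nearest to COX1 (0.0395), ND5 (0.0550) and ND2 (0.0571), which are mitochondrially encoded. Like Scgb1a1 these are bright, with signals of 11.05 to 11.9 on the air and isotype O3 arrays, and their O3 differences were small (-0.29 to -0.34). The part of signal brightness in this likeness was not tested. These likenesses hold the group differences within them and describe 12 arrays.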

How the data were processed

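Lung RNA was measured on 12 arrays. The deposited values are log2 signals that the authors made with oligo and RMA (background correction, quantile normalization and probe summary), for which no versions are given, as for the limma used by the submitters. The authors' own fold changes, p-values and scores (t and B) in the deposited table were not used. Of 35556 probe sets 25254 carried a symbol. Those whose names conflicted with the array annotation (329) were left out, which gave 21582 genes, of which 1202 had no probe set unique to them. Here limma version 3.58.1 in R version 4.3.3 was fitted with a mean for each condition and two-sided tests on 8 residual degrees of freedom, and the lone WT array was assumed to vary like the others. Exact permutation tests used scipy version 1.17.1. Promoter sequences and positions are from RefSeq. The procedure was tested on simulated data with independent normal noise for each gene and array. The simulation held no effect shared by the genes of an array, so it does not bear on such effects. No dim probe sets were filtered, and the number of arrays limits the precision. The genes and lists were chosen with earlier results of these data known. Named genes are the 6, other members of their families, the genes called or of smallest p in each list, the nearest profiles and Ucp1. Of the other club cell genes, Sult1d1 and Cyp2f2 were named after their values were seen. So were Nkx2-1, Foxa1, Foxa2, Cebpa, Cebpb and Cebpd of the regulators, and Krt8, Krt18, Krt19, Cldn4, Rtkn2 and Ucma. Alternatives were other normalizations, filters, thresholds, variance models, array weights, sets of arrays, and each array left out.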

Additional observations from a re-analysis of the deposited data

How the results depend on the processing

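O3 minus air stayed below 0 for all 6 genes in all 29 alternatives. The count of the 6 called lower, 1 as reported, was 3 at an adjusted p under 0.1, 0 without variance moderation, 4 with array weights, 3 with only the groups compared, 0 without the 3 Ucp1-high arrays, 3 with anti-IL-17A replicate 1 out of the fit, and 3 with only the groups compared and the Ucp1-high arrays out, an alternative chosen after seeing the data. With 1 array left out it was 0 in the 12-array fit and 3 to 4 with only the groups compared. Of all 21582 genes, 96 were called lower in the reported fit, 0 without variance moderation and 843 with array weights. With only the groups compared 631 were, and 422 when the Ucp1-high arrays were also out. In the 12-array fit 1 was called lower without the Ucp1-high arrays and 328 with anti-IL-17A replicate 1 out. With 1 array left out 0 to 3 were in that fit and 318 to 860 with only the groups compared. No count over all genes was made at an adjusted p under 0.1, so the counts at that threshold have no share beside them. For anti-IL-17A after O3 against air, the count of the 6 was 0 as reported and 2 with array weights, where 176 of all genes were called lower. With 1 array left out it was 0 to 2. The count of 2 came without anti-IL-17A replicate 2. There 917 of all genes were called lower in the 12-array fit, and 509 with only the groups compared. The other club cell genes called lower were 3 as reported. In the order first given for the 6 genes, the counts were 6, 0, 10, 10, 0, 8 and 7. With 1 array left out they were 0 in the 12-array fit and 5 to 9 with only the groups compared. The cause of these changes was not tested.

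Anti-IL-17A minus isotype turned its sign for all 6 genes under array weights or another setting. With array weights it was 0.0193 for Scgb1a1, -0.29 for Scgb3a1, -0.0939 for Scgb3a2, -0.24 for Chad and -0.0891 for Pon1. Without the Ucp1-high arrays it was 0.0120 for Scgb1a1 and -0.11 for Scgb3a1 in both fits. Quantile normalization gave 0.0105 for Scgb1a1, and subtraction of array medians gave -0.0035 for Kcne2. With 1 array left out the ranges were -0.0797 to 0.0698 (Scgb1a1), -0.26 to 0.57 (Scgb3a1), -0.12 to 0.51 (Scgb3a2), -0.17 to 0.24 (Kcne2) and -0.22 to 0.64 (Pon1). For WT minus db/db they were -0.0797 to 0.20 for Chad and -0.12 to 0.29 for Kcne2.

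The deviations of air and O3 arrays of the same replicate number correlated at 0.113, 0.291, -0.205 and -0.410, and only replicate 2 correlated best with its own number. Those of isotype O3 and anti-IL-17A arrays correlated at 0.430, 0.444 and -0.131 (replicates 1, 2 and 4), and replicates 1 and 2 correlated best with their own number. Those of air and anti-IL-17A arrays were at -0.175, -0.155 and 0.120, and none correlated best with its own number. Whether the replicate numbers pair samples could not be told from these mixed values. With the replicate number as a block, Scgb3a2 had a limma adjusted p of 0.0389 and 1 of the 6 genes was called lower after O3, as was 1 of the other club cell genes (Aldh1a1). Under the block, anti-IL-17A minus isotype was -0.0583 for Scgb3a1 and -0.0544 for Kcne2, and WT minus db/db was -0.25 for Chad and -0.11 for Kcne2.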

Other observations

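The signals of secreted defence proteins of the airway and its glands did not differ in 1 direction between O3 and air under the isotype antibody, and none of the 4 measured was called in the 12-array fit (0.445% of all genes were called lower and 0.598% higher). Ltf (lactoferrin, an iron-binding antimicrobial protein) had a mean signal of 6.34 in air and 8.12 after O3, with every O3 array higher (difference 1.78, limma adjusted p = 0.129, and 0.0242 in the fit of air and isotype O3 arrays alone). Muc5b, the main mucin of mouse small airways, differed by 1.14. Plunc, the gene nearest to Scgb3a1 in profile, differed by -0.74, and Reg3g by -0.14. They were named after their values were seen.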
